A study of Mus musculus with 4 samples.

Results

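The genes described here are 10 members of the Nrf2 antioxidant program, taken by name out of the 31053 genes counted in each library. No measured value entered the rule for the choice, but it was made with earlier results of these data known. The members are the targets Hmox1, Txnrd1, Gclc, Srxn1, Slc7a11, Gsr, Me1 and Prdx1 and the regulators Keap1 and Bach1. Each was read as unique molecular identifiers (UMIs, single captured transcript molecules) summed within 7 marker-gated cell types of each library and expressed as UMIs per 1000000 UMIs of those cells (CPM). The cells came from mouse aortic arches with their main branches and perivascular tissue, digested, sorted as DAPI-negative viable cells and sequenced from the 3′ end on a 10x Genomics platform. The tissue is aorta in the sample labels and the study's methods, while the library protocol in the labels names meniscal zones, a conflict that could not be settled here. There were 4 libraries, each from the pooled tissue of several male mice that were 3 months old at the start. Lox_CTR (4 mice) and KO_CTR (4 mice) were kept on standard diet with no viral vector. Lox_HFD (3 mice) and KO_HFD (3 mice) received a single injection of a viral vector and 21 weeks of high-fat diet. The genotype label was Nrf2Cdh5Lox in Lox_CTR and Lox_HFD, whose mice carry a floxed Nrf2 gene (Nfe2l2), and Nrf2Cdh5tKO in KO_CTR and KO_HFD, whose mice also carry a Cre recombinase driven by the Cdh5 promoter. The Cre is active from development onward, in endothelium and in part of the blood-forming lineage, and removes exon 5 of Nfe2l2, so other cells of these mice keep the intact gene. With 1 library per condition there was no replicate of diet or genotype, and pooled animals cannot be told apart within a library.

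Nrf2 is a transcription factor that is held in the cytoplasm and sent for degradation by Keap1, an adaptor of a ubiquitin ligase. Oxidants and electrophiles modify Keap1, Nrf2 then accumulates and, paired with a small Maf protein, binds antioxidant response elements near genes for glutathione synthesis, thiol reduction, NADPH supply and heme breakdown. Bach1 occupies many of the same elements as a repressor and is released by heme, which makes the heme-handling macrophages of tissues a setting where Hmox1 is well known to be high.

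The promoter windows of the members are shown first because several of them carry the letters that Nrf2 and Bach1 are known to recognise. RefSeq windows of 300 bases, from 250 bases before to 50 bases after each annotated start site (build GRCm38.p6), were found for 7 of the 10 genes as 10 windows. The windows were searched on both strands for TGACNNNGC, the core of the antioxidant response element, and for TGANTCA, the AP-1-like element, and a stretch TGACTCAGC or its reverse holds both. The first motif was found in 4 of the 10 windows and in 12.4% of all 32851 windows in the table. The second was found in 3 of the 10 windows and in 7.81% of all windows. In the 4 stretches with a match, written 5′ to 3′ along the gene's own strand, capitals mark the matched bases, and the Slc7a11 stretch is shown because its window held neither motif.
Txnrd1, chr10:82859086-82859145, plus strand: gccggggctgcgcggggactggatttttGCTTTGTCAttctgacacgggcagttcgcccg
Srxn1, chr2:152105404-152105493, plus strand: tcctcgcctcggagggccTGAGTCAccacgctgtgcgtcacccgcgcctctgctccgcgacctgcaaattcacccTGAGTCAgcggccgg
Prdx1, chr4:116685439-116685498, plus strand: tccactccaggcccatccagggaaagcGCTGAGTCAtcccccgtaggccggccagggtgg
Me1, chr9:86695910-86695939, minus strand: ggctcggccgatgccgccgTGACTCAGCgc
Slc7a11, chr3:50443614-50443703, minus strand: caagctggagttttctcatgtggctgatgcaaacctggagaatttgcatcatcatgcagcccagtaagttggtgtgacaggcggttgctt
The Txnrd1 match begins 92 bases before the start site of an internal promoter that lies within the gene (chr10:82833951-82897712, plus strand, GENCODE M21 on mm10). The Srxn1 stretch holds 2 AP-1-like matches, at 102 and 45 bases before the start, and its window holds a core match 28 bases after the start. The Me1 and Prdx1 stretches hold both motifs over the same bases. Neither motif was found in the windows of Slc7a11, Keap1 or Bach1. A match is a description of the letters and no binding was measured in these data.

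The 4 libraries held 1160 to 8512 cell barcodes and 12276546 to 98754487 UMIs, and Lox_HFD was the shallowest. In all, 15568 distinct barcodes were read, 30 of them shared by at least 2 libraries, and 14126 distinct barcodes were left by the limits that the study set on genes per cell and on mitochondrial reads. The gates gave 7227 fibroblasts, 1974 smooth muscle cells, 136 endothelial cells, 832 Lyve1+ macrophages, 436 other macrophages, 148 monocytes and 1113 lymphocytes, and no gate used any of the 10 genes. In each type its own marker list was the highest of the gating lists in every library, except for the monocytes of both high-fat libraries. There the neutrophil list stood at 22346 CPM in Lox_HFD and 16950 in KO_HFD, against 198 in Lox_CTR and 111 in KO_CTR, and taking the neutrophil gate at 2 markers removed 1 cell from each and left 220 and 306. All 5 monocyte calls given later held without that cell, and the values it moves are given both ways. The gene targeted by the label, Nfe2l2, was not lower in the libraries labelled Nrf2Cdh5tKO. In endothelial cells it stood at 172 CPM in Lox_CTR, 396 in KO_CTR, 178 in Lox_HFD and 372 in KO_HFD, and in Lyve1+ macrophages at 422, 474, 338 and 368. The counts are per gene and do not show which exon a read came from. They therefore do not check the label, and the pair is called by its label throughout. The study did measure the excised exon against an intact exon by quantitative PCR. It reported a lower ratio in bone marrow-derived macrophages and Kupffer cells of Nrf2Cdh5tKO mice. Cells of the aorta were not part of that measurement.

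Across the 7 cell types, mean levels of Hmox1 and Bach1 were highest in macrophages, those of Slc7a11 and Gsr in monocytes, and that of Me1 in smooth muscle cells. Neutrophils, which are not among these types, held more Slc7a11 and Gsr than monocytes in every library, with values given further below. Gclc and Srxn1 had their highest mean in fibroblasts, without a passed step to the next type, and Keap1 and Prdx1 varied less between types. Each cell type was compared with the mean of the other 6 by edgeR's quasi-likelihood test over the 4 libraries. The library was a block, and Benjamini-Hochberg adjustment ran over all 11258 genes tested. The mean of the other types is taken over log2 levels. Types near 0 therefore pull it down and widen the difference for genes such as Slc7a11 and Me1. Of the 70 combinations of gene and type, 24 were called higher and 20 lower at an adjusted p under 0.05. By type, 5 members were higher and 3 lower in fibroblasts, where 62.3% of all genes tested were called in either direction. The counts were 4 and 5 in smooth muscle cells (65.8% of all genes), 1 and 3 in endothelial cells (31.9%), and 3 and 3 in Lyve1+ macrophages (48.8%). In other macrophages they were 5 and 2 (42.2%), in monocytes 5 and 0 (42.2%), and in lymphocytes 1 and 4 (67.1%). A call against the rest was thus common among all genes and is not particular to the members. The replicates of this comparison are 4 libraries of 4 different conditions, each a pool of mice of its own. Of the 44 calls, 26 held when each library was left out in turn, and the 18 that did not are named with their gene.

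**Figure D1:**
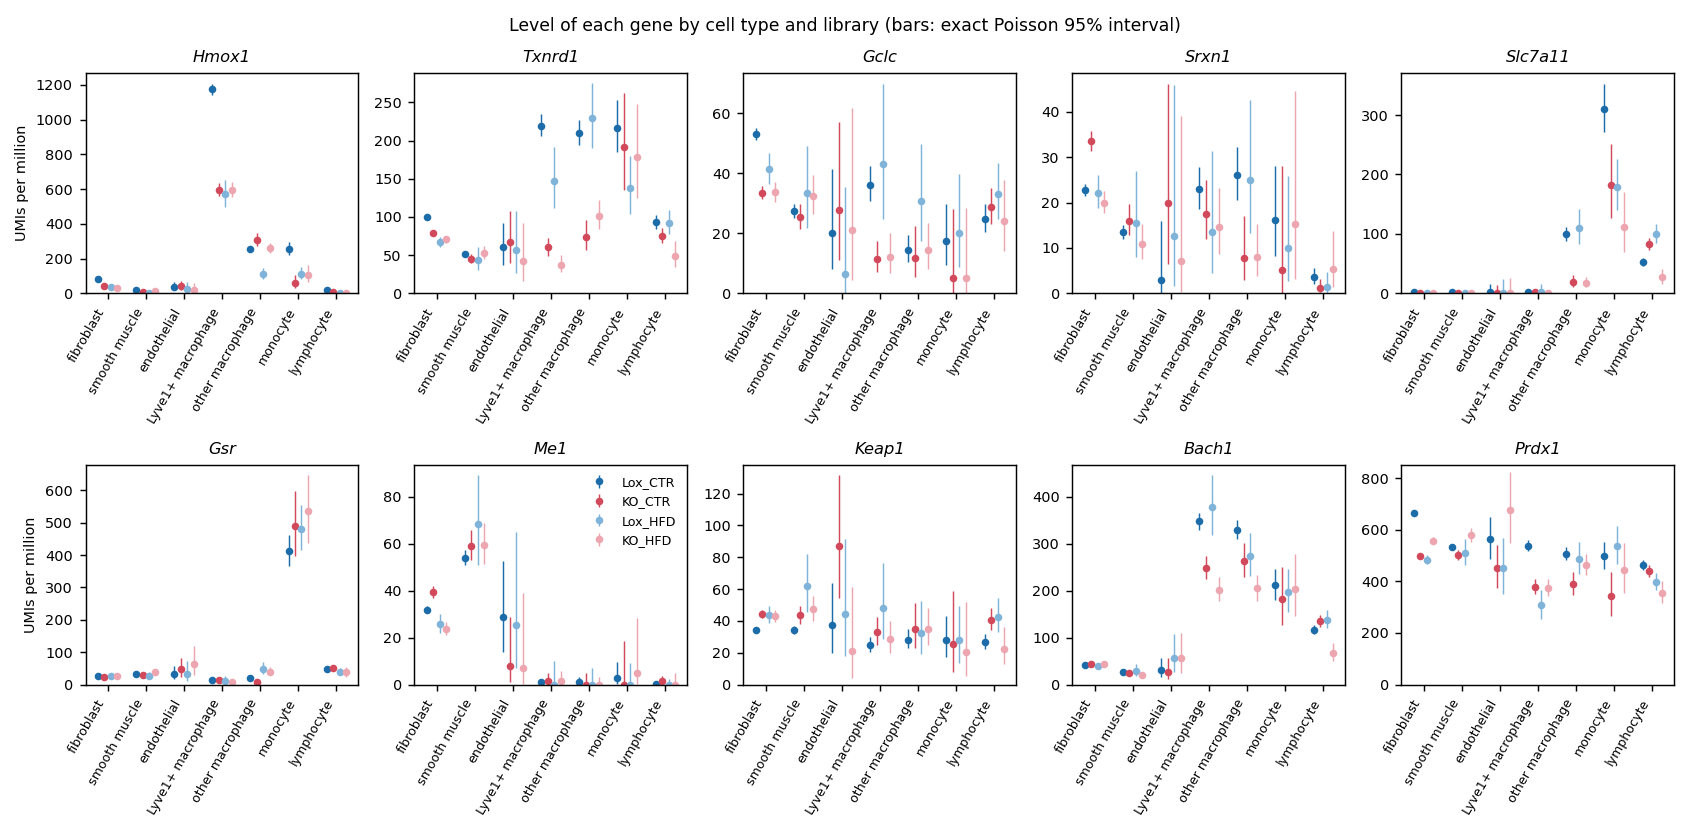
Level of each of the 10 genes in CPM (vertical axis, from 0, own scale per gene) in the 7 cell types (horizontal axis), 1 point per library with its exact Poisson 95% interval. Hmox1 in Lyve1+ macrophages lay between 569 and 1173, above every other type, Gsr in monocytes lay between 412 and 535, and Prdx1 lay between 306 and 674 in all types.

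Hmox1 (chr8:75093621-75100589) encodes heme oxygenase 1, which opens the heme ring and releases iron, carbon monoxide and biliverdin. In Lyve1+ macrophages it stood at 1173 CPM in Lox_CTR, 596 in KO_CTR, 569 in Lox_HFD and 595 in KO_HFD. In other macrophages, in the same order of libraries, which is kept from here on, it stood at 255, 307, 111 and 260. Even the lowest Lyve1+ library was above the highest library of other macrophages. Against the remaining types Hmox1 was 4.16 higher in Lyve1+ macrophages on the log2 scale (SE 0.16, adjusted p = 1.7e-19) and 2.45 higher in other macrophages (SE 0.18, adjusted p = 1.6e-12). In monocytes it was at 257, 60.5, 111 and 107 CPM and was also called higher, by 1.41 (SE 0.23, adjusted p = 9.1e-06). It was lower in smooth muscle cells (−2.75, SE 0.26), lymphocytes (−3.44, SE 0.28) and endothelial cells (−1.50, SE 0.37), and the endothelial call was lost without Lox_CTR (−0.96, adjusted p = 0.099). In the order of mean levels, each of the first 3 steps passed the test (Lyve1+ over other macrophages, other macrophages over monocytes, monocytes over fibroblasts), and the last 3, from fibroblasts down to endothelial cells, smooth muscle cells and lymphocytes, did not. Hmox1 UMIs outside the myeloid cells can come from free RNA in the droplets, so they were set against Pf4, a gene of macrophages and platelets. In fibroblasts Hmox1 was at 5.4% to 7.15% of the Lyve1+ level across libraries and Pf4 at 0.40% to 1.20%. In smooth muscle cells the ranges overlapped, with Hmox1 at 0.45% to 1.95% and Pf4 at 0.36% to 1.39% across libraries. Within libraries the order changed, since in Lox_CTR Hmox1 was at 1.62% (395 UMIs) and Pf4 at 0.36%, and in Lox_HFD they were at 0.45% (2 UMIs) and 1.13%. Lymphocytes likewise had Hmox1 at 1.82% and Pf4 at 0.52% in Lox_CTR, and Hmox1 at 0.67% to 0.76% against Pf4 at 1.30% to 1.63% in the other 3 libraries. The part of free RNA in these levels was not tested further.

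Bach1 (chr16:87698945-87733346), the heme-sensitive repressor of Hmox1, was also highest in macrophages. It stood at 347, 248, 379 and 202 CPM in Lyve1+ macrophages and at 330, 263, 274 and 205 in other macrophages, and the 2 classes overlapped. In monocytes it stood at 211, 181, 196 and 204. The gene was 1.85 (SE 0.12, adjusted p = 5.1e-14), 1.87 (SE 0.12, adjusted p = 6.3e-14) and 1.29 (SE 0.15, adjusted p = 2.5e-08) higher on the log2 scale in these 3 types than in the rest. Fibroblasts (39.2 to 44.3 CPM), smooth muscle cells (21.3 to 28.3) and endothelial cells (27.7 to 57.1) were all called lower. Lymphocytes lay between, at 67.8 to 138, and were below monocytes by 0.95 (SE 0.18) and above endothelial cells by 1.69 (SE 0.26) on the log2 scale. All 6 Bach1 calls held without each library.

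Keap1 (chr9:21229730-21239361), the adaptor that holds Nrf2 down, varied little between types. Its mean over the 4 libraries ran from 25.3 ± 3.54 (SD, n = 4 libraries) CPM in monocytes to 47.5 ± 28.2 in endothelial cells, where only 136 cells were read. The calls higher in smooth muscle cells (log2 0.43, SE 0.12) and in fibroblasts (0.30, SE 0.11) were small. The first was lost without Lox_HFD (0.25, adjusted p = 0.13) or KO_HFD (0.26, adjusted p = 0.12), and the second without Lox_CTR, Lox_HFD or KO_HFD (0.11 to 0.27). Of its 6 steps in order, fibroblasts over Lyve1+ macrophages alone passed the test (0.48, SE 0.16, adjusted p = 0.0086).

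Slc7a11 (chr3:49892526-50443614) encodes the cystine importer xCT, which brings in the precursor of the cysteine used for glutathione. In monocytes it stood at 310, 181, 179 and 112 CPM. In lymphocytes it was at 51.8, 83, 99.5 and 26.6, and in other macrophages at 99.6, 18.2, 109 and 17. Lyve1+ macrophages held 1 to 10 UMIs per library (0.815 to 2.84 CPM), close to fibroblasts at 0.771 to 1.98. Among the 7 types the gene was therefore present in 3 leukocyte classes and near absent in Lyve1+ macrophages and stroma. Against the rest it was 5.46 higher in monocytes on the log2 scale (SE 0.31, adjusted p = 4e-15), 3.48 in other macrophages (SE 0.32, adjusted p = 2.4e-10) and 3.46 in lymphocytes (SE 0.30, adjusted p = 2.7e-11). Without the granulocyte-marked cell in each high-fat library the monocytes stood at 310, 181, 191 and 102. In smooth muscle cells 39 UMIs were counted in Lox_CTR, 0 in KO_CTR, 0 in Lox_HFD and 1 in KO_HFD, where 3 UMIs, the count taken as the limit that 0 allows, would be 0.539 CPM in KO_CTR and 3.86 in Lox_HFD. The calls lower in fibroblasts and in smooth muscle cells were lost without Lox_CTR, and their fitted sizes depend on the prior count. Of its 6 steps in order, monocytes over lymphocytes and other over Lyve1+ macrophages passed the test. Few cells carried much of the signal. In monocytes 1 cell held 6.9%, 50%, 26.8% and 36.4% of the Slc7a11 UMIs, and in other macrophages 1 cell held 9.03%, 71.4%, 71.9% and 26.3%.

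Gsr (chr8:33652523-33698163) encodes glutathione reductase, which returns oxidised glutathione to its reduced form with NADPH. Monocytes stood at 412, 489, 481 and 535 CPM, above every library of the other 6 types, which ranged from 7.81 to 63.2. The difference to the rest was 4.10 on the log2 scale (SE 0.15, adjusted p = 8e-20), and it was 4.07 without the granulocyte-marked cells. Lyve1+ macrophages held the least, 15.3, 14.2, 10.7 and 8.96, and were lower than the rest by 1.91 (SE 0.22, adjusted p = 2.4e-08). Other macrophages (−0.71, SE 0.21), fibroblasts (−0.75, SE 0.15) and smooth muscle cells (−0.39, SE 0.17) were also called lower, and the calls in other macrophages and in smooth muscle cells were each lost without Lox_CTR or KO_CTR. Of the 6 steps in order, monocytes over lymphocytes (3.53, SE 0.21) and fibroblasts over Lyve1+ macrophages (0.99, SE 0.24) passed the test.

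Txnrd1 encodes cytosolic thioredoxin reductase 1, which keeps thioredoxin reduced. It stood at 217, 192, 138 and 178 CPM in monocytes and at 210, 74.2, 230 and 101 in other macrophages. Lyve1+ macrophages stood at 220, 60.1, 148 and 37.5. Both macrophage classes were spread more widely over the libraries than monocytes, and in both the 2 low libraries were KO_CTR and KO_HFD. The gene was higher than in the rest in monocytes (log2 1.19, SE 0.25, adjusted p = 0.00034) and in other macrophages (0.97, SE 0.21, adjusted p = 0.00052), and it was lower in smooth muscle cells (−0.89, SE 0.23). The call in endothelial cells (−1.09, SE 0.36) was lost without Lox_CTR or Lox_HFD, and in Lyve1+ macrophages the difference missed the threshold (0.28, SE 0.22, adjusted p = 0.31). None of the 6 steps in its order passed the test.

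Gclc (chr9:77754535-77794485) encodes the catalytic subunit of glutamate-cysteine ligase, the first step of glutathione synthesis. Fibroblasts stood at 52.9, 33.4, 41.3 and 33.6 CPM and were 1.05 above the rest on the log2 scale (SE 0.16, adjusted p = 1.8e-06). Smooth muscle cells, at 25.3 to 33.5, were called higher by 0.51 (SE 0.19), a call lost without Lox_HFD or KO_HFD. Lyve1+ macrophages stood at 36.1, 11.3, 43 and 12.2, which put KO_CTR and KO_HFD below the other two libraries as for Txnrd1. No step in the order of Gclc passed the test.

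Srxn1 (chr2:152105516-152111376) encodes sulfiredoxin, which repairs over-oxidised peroxiredoxins. Fibroblasts stood at 22.8, 33.5, 22.2 and 20 CPM, 1.37 above the rest on the log2 scale (SE 0.20, adjusted p = 5.3e-07). Lymphocytes were lowest, at 1.2 to 5.32, 2.83 below the rest (SE 0.37, adjusted p = 1e-07). The calls higher in Lyve1+ macrophages (0.75, SE 0.26) and other macrophages (0.83, SE 0.28) were lost without Lox_CTR (0.68 and 0.35), and the second also without Lox_HFD. No step in its order passed the test.

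Prdx1 (chr4:116685544-116700822), the peroxiredoxin that sulfiredoxin can repair, was detected at 306 to 674 CPM in all 28 sums of cell type and library. Its calls were small, at log2 0.36 in fibroblasts, 0.29 in smooth muscle cells, −0.29 in Lyve1+ macrophages and −0.35 in lymphocytes. Each of the 4 was lost without Lox_HFD and also without KO_HFD, and no step in its order passed the test.

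Me1 (chr9:86581371-86695953) encodes cytosolic malic enzyme, which makes NADPH. Smooth muscle cells stood at 54.1, 59.1, 68.3 and 59.6 CPM and fibroblasts at 31.9, 39.4, 25.8 and 23.8. Monocytes, lymphocytes and both macrophage classes stood at 0 to 5.09, from at most 5 UMIs per library. The gene was 4.42 above the rest in smooth muscle cells (SE 0.20, adjusted p = 3.6e-18) and 3.30 in fibroblasts (SE 0.20, adjusted p = 8e-15), and smooth muscle cells were above fibroblasts by 0.96 (SE 0.17, adjusted p = 2.2e-05). Endothelial cells, at 28.7, 7.92, 25.4 and 7.03, were called higher by 2.07 (SE 0.51), a call lost without Lox_CTR. The calls lower in Lyve1+ macrophages and in lymphocytes were lost without Lox_CTR too, and that in other macrophages held.

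The 2 macrophage classes, split by at least 1 UMI of Lyve1, a hyaluronan receptor of resident macrophages, were then compared directly in the same edgeR fit. Lyve1+ macrophages had more Hmox1 and less Slc7a11 and Gsr than the other macrophages in the joint test, and the other 7 genes did not pass it. Hmox1 and Slc7a11 differed in the same direction in all 4 libraries, while Gsr was higher in the Lyve1+ class of KO_CTR (14.2 CPM against 7.81) and its difference was widest in the 2 high-fat libraries (10.7 and 8.96 against 48 and 39.5). Of all genes tested 20.9% were called, 1137 higher and 1213 lower in Lyve1+ macrophages, and of the members 1 was higher and 2 were lower. The difference was 1.47 for Hmox1 (log2, SE 0.24, adjusted p = 3.8e-05), −4.94 for Slc7a11 (SE 0.53, adjusted p = 9.2e-08) and −1.03 for Gsr (SE 0.29, adjusted p = 0.012). The Gsr call was lost without Lox_HFD (−0.76, adjusted p = 0.11), without KO_HFD (−0.66, adjusted p = 0.21) and when the 2 classes were fitted alone (−0.91, adjusted p = 0.085). Txnrd1 (−0.58, SE 0.28, adjusted p = 0.15) and Prdx1 (−0.32, SE 0.15, adjusted p = 0.14) missed the threshold. Over the 10 members the median difference was −0.14 and over all genes it was 0.06. The marker lists moved with the split, since the 7 macrophage markers summed to 19420 to 21189 CPM in Lyve1+ macrophages and 9518 to 15399 in the others. The part of that difference in these results was not tested. When macrophages were taken only from a summed marker level of 100 per 10000 UMIs, Hmox1 (1.37), Slc7a11 (−3.97) and Gsr (−0.91) were still called. In KO_CTR the direction of Slc7a11 (2.89 CPM in the Lyve1+ class against 1.66 from 1 UMI) and of Gsr (14.5 against 8.28) was then opposite, and Slc7a11 in other macrophages came from 97 UMIs in Lox_CTR against 1, 2 and 4 in the other libraries.

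**Figure D2:**
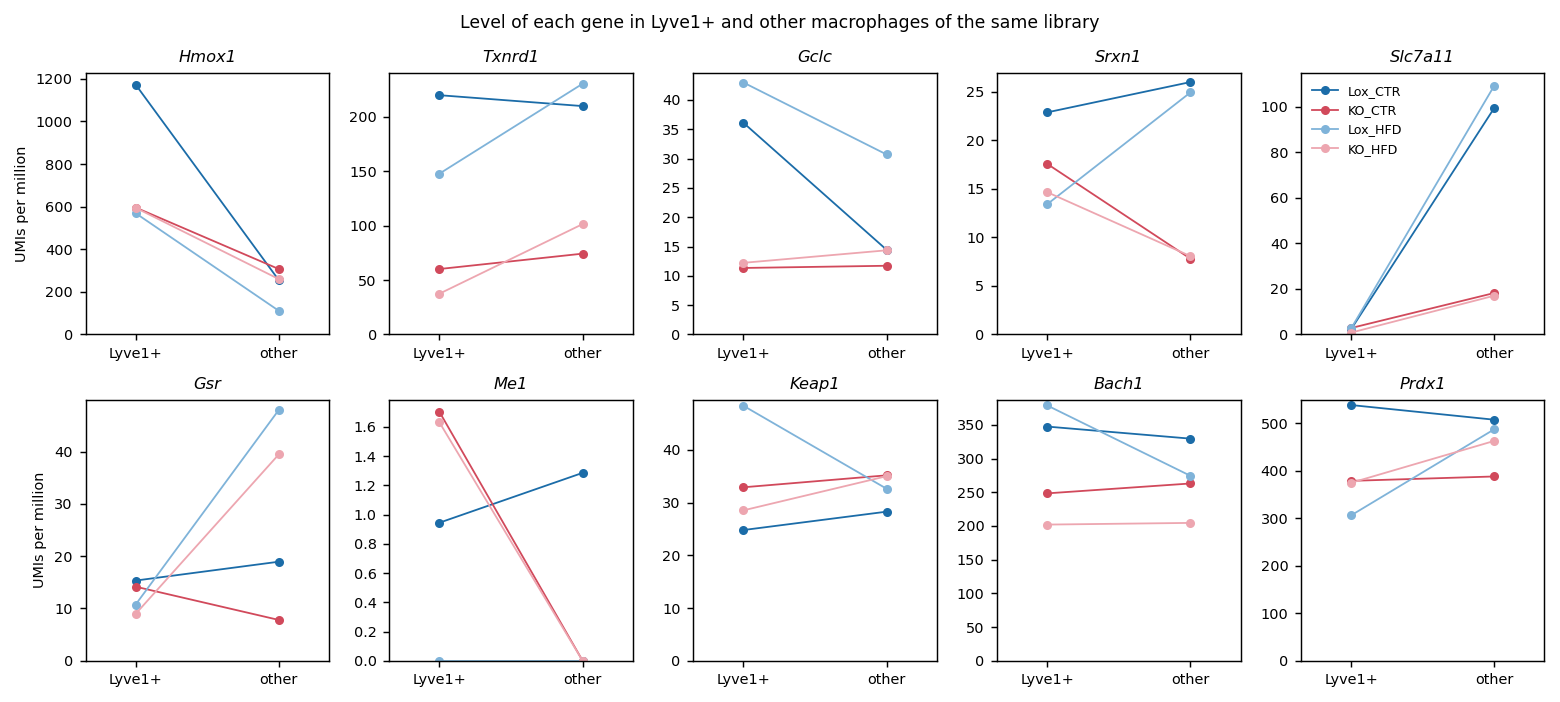
Level of each gene in CPM (vertical axis, from 0) in Lyve1+ and other macrophages, with a line joining the 2 classes of the same library. Hmox1 is higher in the Lyve1+ class in all 4 libraries (569 to 1173 against 111 to 307), and Slc7a11 is at most 2.84 in that class.

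The comparison of genotype labels set the Nrf2Cdh5tKO library against the Nrf2Cdh5Lox library of the same diet within each cell type. In macrophages Txnrd1 was lower in the libraries labelled Nrf2Cdh5tKO on both diets and in both classes, and Gclc was lower in the Lyve1+ class, while fibroblasts and smooth muscle cells showed no member changed by 1.5-fold or more in both pairs. With 1 library per condition there was no replicate and no test was run, so ratios are given as log2 with an exact 95% binomial interval, which covers counting error only. A gene is counted where it was at least 1.5-fold apart in the same direction in KO_CTR against Lox_CTR and in KO_HFD against Lox_HFD, among genes with at least 40 UMIs over the 4 libraries of that cell type.

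In Lyve1+ macrophages 8 members were deep enough, all but Slc7a11 and Me1, and 2 of them were lower in both pairs, where 1.33% of 8963 genes were. None was higher, where 3.1% of all genes were. From 931, 106, 55 and 46 UMIs in 408, 218, 56 and 150 cells, the ratio for Txnrd1 was −1.87 (−2.17 to −1.58) on standard diet and −1.98 (−2.58 to −1.39) on high-fat diet. For Gclc, from 153, 20, 16 and 15 UMIs, it was −1.67 (−2.42 to −0.99) and −1.81 (−2.93 to −0.70). By the weaker of the 2 ratios, with only genes lower in both pairs ranked, Txnrd1 stood at place 5 and Gclc at place 9. Genes that were higher by as much are not in this order, and 8963 genes were deep enough. Neither gene's libraries overlapped between the labels, and the share of all genes without overlap was not counted. Bach1 was lower in both pairs by less, −0.48 (−0.64 to −0.33) and −0.91 (−1.21 to −0.60). Hmox1 was lower on standard diet alone, at −0.98 (−1.07 to −0.88), with 0.06 (−0.16 to 0.29) on high-fat diet, where both libraries stood at the lower level. Prdx1 had −0.51 (−0.63 to −0.38) and 0.29 (−0.01 to 0.60). The intervals of Srxn1, Gsr and Keap1 spanned 0 in both pairs. The median over the 8 members was −0.50 in each pair, beside 0.21 and −0.13 over all genes.

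The share of cells with a Txnrd1 UMI followed the summed level. It was 71.8% (67.2% to 76.1%) of Lyve1+ macrophages in Lox_CTR, 31.2% (25.1% to 37.8%) in KO_CTR, 53.6% (39.7% to 67.0%) in Lox_HFD and 18.0% (12.2% to 25.1%) in KO_HFD, with median depths of 9929, 7306, 6128 and 7655 UMIs per cell. After each cell was thinned to 2000 UMIs, with no cell left out, the shares were 32.8% (28.3% to 37.6%), 7.80% (4.61% to 12.2%), 23.2% (13% to 36.4%) and 9.33% (5.20% to 15.2%). These intervals cover the counting of cells within a library and are no test between conditions. For Gclc the shares were 24.8%, 8.72%, 21.4% and 9.33% before thinning and 5.88%, 4.59%, 7.14% and 2.00% after it, too few for an order to be read. No cell type here is known to lack Txnrd1, and fibroblasts, at median depths of 12445, 16879, 14142 and 11660, held it in 51.8%, 58.4%, 53.5% and 45.8% of cells. No single cell held more than 13% of the Txnrd1 UMIs of a Lyve1+ class.

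**Figure D3:**
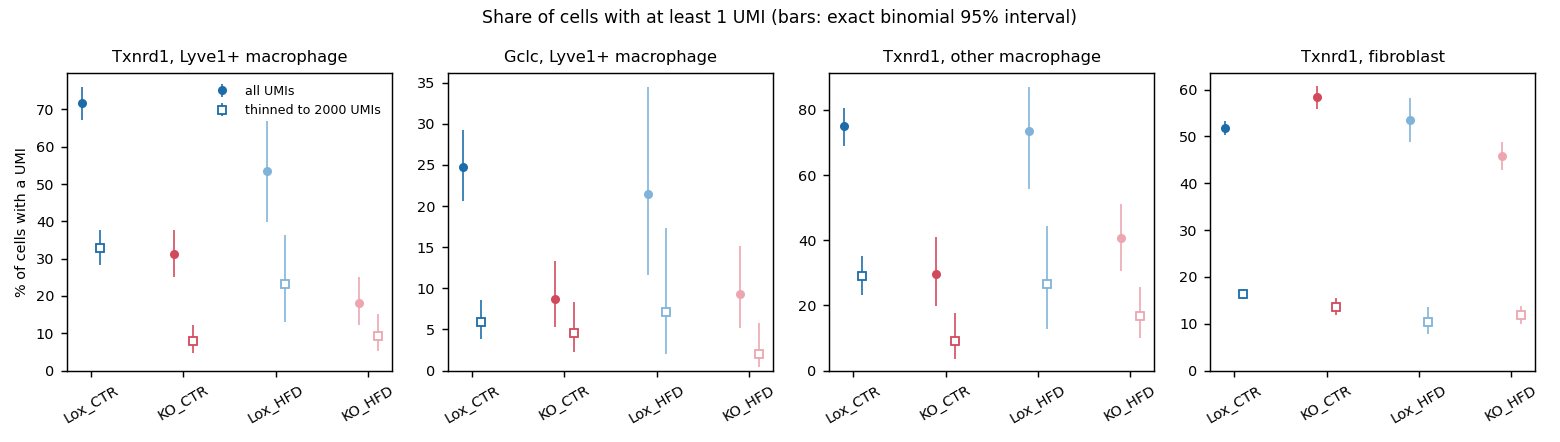
Share of cells with at least 1 UMI in percent (vertical axis, from 0) in the 4 libraries, before and after thinning each cell to 2000 UMIs, with exact binomial 95% intervals. For Txnrd1 in Lyve1+ macrophages the share was 71.8% and 53.6% in the Nrf2Cdh5Lox libraries against 31.2% and 18.0% in the Nrf2Cdh5tKO libraries.

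In other macrophages 9 members were deep enough, all but Me1, and 3 were lower in both pairs, where 2.03% of 7961 genes were. None was higher, where 5.59% of all genes were. Txnrd1, from 653, 57, 120 and 113 UMIs in 228, 78, 34 and 96 cells, had ratios of −1.50 (−1.92 to −1.11) and −1.18 (−1.57 to −0.80). Its libraries did not overlap between the labels, an order not counted over all genes, and 1 cell held 19.2% of its UMIs in Lox_HFD. Slc7a11, from 310, 14, 57 and 19 UMIs, had −2.45 (−3.34 to −1.68) and −2.68 (−3.51 to −1.91). Srxn1, at 26, 7.81, 24.9 and 8.07 CPM from 81, 6, 13 and 9 UMIs, had −1.74 (−3.22 to −0.55) and −1.63 (−3.03 to −0.29). Bach1 was lower by less, −0.33 (−0.55 to −0.11) and −0.42 (−0.73 to −0.11), and Hmox1 was higher in both pairs, 0.27 (0.05 to 0.48) and 1.22 (0.81 to 1.66), with 28.8% of its UMIs in KO_CTR from 1 cell. The median over the 9 members was −0.39 and −0.42, beside 0.17 and 0.03 over all genes.

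The make-up of the class of other macrophages moved with the label. Its 7 macrophage markers summed to 10836, 15399, 9518 and 12482 CPM, so the class was richer in macrophage transcripts in the Nrf2Cdh5tKO library of each pair, and all 7 were detected in every library. The 5 dendritic markers summed to 32.8, 15.6, 180 and 10.8, with Lox_HFD the highest. When only cells with a summed macrophage level of at least 100 per 10000 UMIs were kept, 149, 64, 20 and 65 cells were left. Txnrd1 then had −2.61 (−3.34 to −1.96) and −1.23 (−1.85 to −0.61) and still passed in both pairs. Slc7a11, from 97, 1, 2 and 4 UMIs, had −5.03 (−10.35 to −2.52) and −0.32 (−3.12 to 3.15), and Srxn1, from 45, 5, 3 and 5 UMIs, had −1.60 (−3.29 to −0.27) and −0.58 (−2.95 to 2.10). On high-fat diet both intervals then spanned 0 and were wide enough to hold no difference as well as the ratio before the limit. Before the limit, 1 cell held 71.9% of the Slc7a11 UMIs of Lox_HFD. In Lyve1+ macrophages the same limit left 396, 213, 55 and 147 cells and ratios of −1.86 and −2.05 for Txnrd1 and −1.71 and −1.89 for Gclc.

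A list of 6 early-response genes (Fos, Jun, Egr1, Atf3, Hspa1a and Hspa1b), which tissue digestion is known to raise, also differed between libraries. It summed to 5867, 9056, 11346 and 11384 CPM in Lyve1+ macrophages and to 3258, 8558, 3351 and 6217 in other macrophages. Its part in the ratios was not tested. Transcripts of atrial muscle stood at 519 CPM in the Lyve1+ macrophages of KO_CTR and at no more than 1.89 in the other libraries. Whether pools, digestion or the genotype set the differences cannot be told apart with 1 library per condition.

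**Figure D4:**
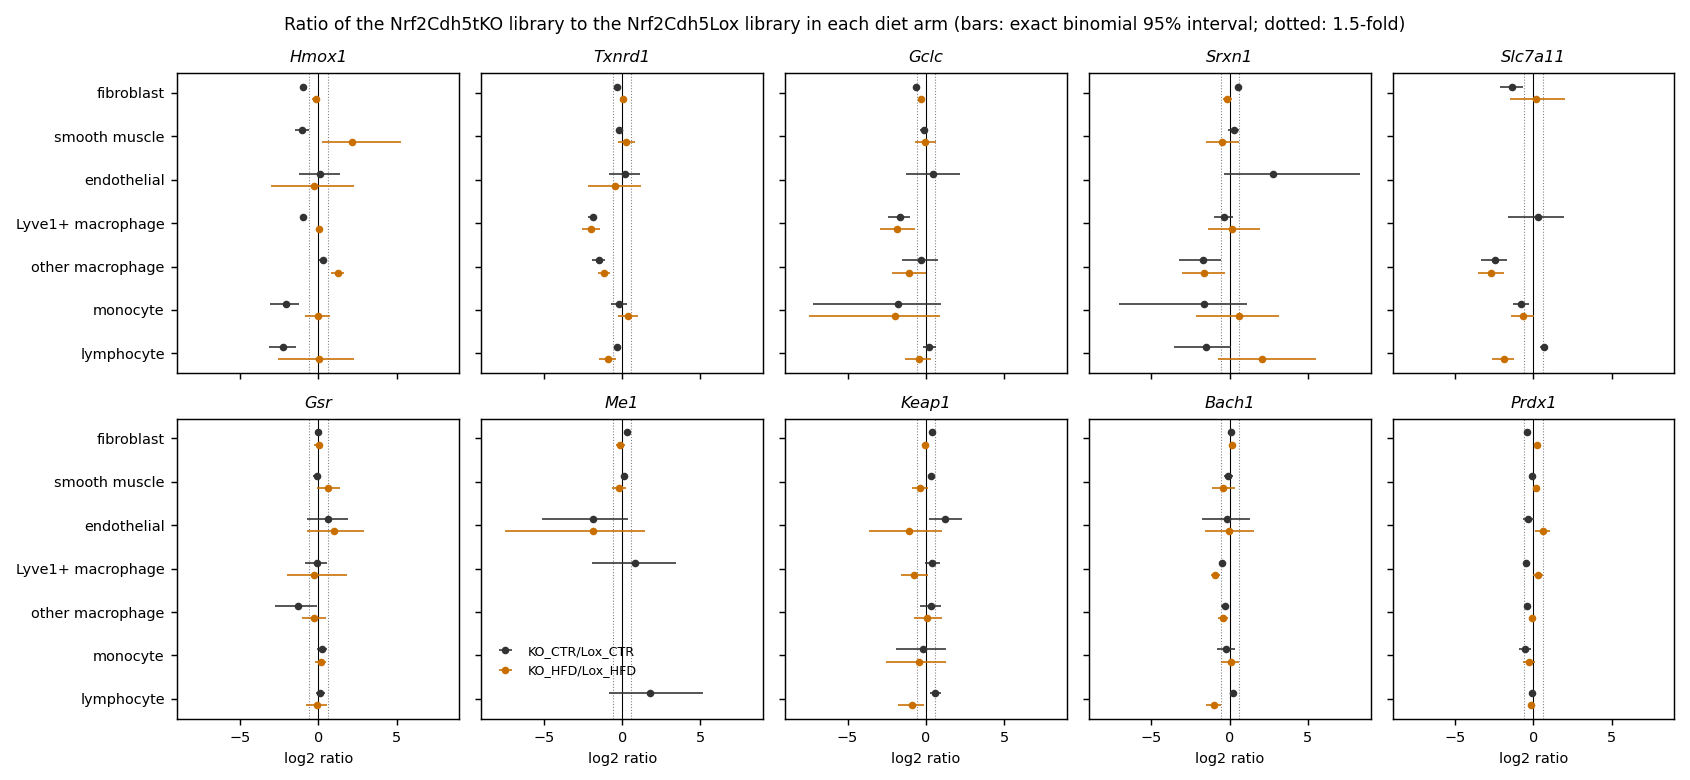
Log2 ratio of the Nrf2Cdh5tKO to the Nrf2Cdh5Lox library (horizontal axis) for each gene in the 7 cell types, with 1 point per diet arm, exact binomial 95% intervals as bars and dotted lines at 1.5-fold. Txnrd1 lies at −1.18 or lower in both macrophage classes on both diets, while in fibroblasts it lies at −0.34 and 0.07.

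In fibroblasts and smooth muscle cells no member passed 1.5-fold in both pairs. In fibroblasts the count was 0 of 10 members, where 2.47% of 13823 genes did. Txnrd1, at 100, 79.1, 67.2 and 70.6 CPM, had −0.34 (−0.42 to −0.27) and 0.07 (−0.10 to 0.24). Gclc had −0.66 (−0.77 to −0.55) and −0.30 (−0.52 to −0.07). The fibroblast counts are deep, from 436 to 5164 Txnrd1 UMIs per library, and these intervals cover counting error only. Both Gclc intervals lay below 0. Whether these ratios differ from those in Lyve1+ macrophages was not tested. In smooth muscle cells 0 of 10 passed (2.95% of 11801 genes), and Txnrd1, at 51.2, 45.5, 43.8 and 52.6, had −0.17 (−0.37 to 0.03) and 0.26 (−0.28 to 0.84). Hmox1 in fibroblasts stood at 82.4, 42.6, 35.8 and 32.1, so that Lox_CTR was the highest library there, as it was for this gene in all types but endothelial cells and other macrophages.

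Endothelial cells, the main target of the Cre, were few. From 59, 37, 21 and 19 cells 3 members had 40 UMIs or more and 0 of them passed 1.5-fold in both pairs, where 4.93% of 3691 genes did. Txnrd1, from 21, 17, 9 and 6 UMIs, had 0.16 (−0.85 to 1.15) and −0.44 (−2.21 to 1.22). The first interval does not reach the ratios of either macrophage class on standard diet, and the second is wide enough to hold those on high-fat diet as well as no difference. Both intervals cover counting error only, not the spread between pools, and a difference from macrophages was not tested. Prdx1, the deepest member there with 71 to 196 UMIs, had −0.32 (−0.66 to 0.02) and 0.58 (0.13 to 1.05). The 5 fibroblast markers in these cells summed to 1620, 642, 1066 and 2831 CPM, beside 3063 to 3351 for the endothelial list, so they moved the same way as Prdx1, and their part was not tested.

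In monocytes 1 of 7 members passed, Slc7a11, lower with −0.77 (−1.32 to −0.26) and −0.67 (−1.43 to 0.03), where 5.42% of 4389 genes passed in either direction. Without the granulocyte-marked cells the high-fat ratio was −0.90, and as a mean over cells the standard-diet ratio was −0.09. Single cells held large parts of these UMIs, as given with the gene. Txnrd1 in monocytes had −0.18 (−0.73 to 0.34) and 0.37 (−0.29 to 1.0). In lymphocytes 0 of 8 passed (1.98% of 9822 genes), and Txnrd1, at 93.2, 75.2, 92.5 and 49.2 CPM, had −0.31 (−0.54 to −0.08) and −0.91 (−1.47 to −0.38). Whether a ratio in macrophages differs from that in another cell type was not tested.

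The diet comparison set Lox_HFD against Lox_CTR and KO_HFD against KO_CTR. It shares every library with the label comparison. Gsr was higher on high-fat diet in other macrophages, and Slc7a11 was lower in monocytes, past 1.5-fold in both pairs. By cell type 3.69% to 14.8% of all genes passed too, so such counts are not particular to the members. In other macrophages 1 of 9 members passed 1.5-fold in both pairs, where 7.24% of all genes did. Gsr there stood at 19 CPM in Lox_CTR, 7.81 in KO_CTR, 48 in Lox_HFD and 39.5 in KO_HFD, from 59, 6, 25 and 44 UMIs. Both high-fat libraries were above both standard-diet libraries, an order not counted over all genes. The log2 ratios were 1.34 (0.60 to 2.04) and 2.34 (1.10 to 3.86). By the weaker ratio, with only genes higher in both pairs ranked, Gsr stood at place 43, and 7961 genes were deep enough. With only cells of a summed macrophage level of at least 100, Gsr stood at 22.3, 8.28, 35.4 and 28.3 CPM. These levels came from 40, 5, 9 and 18 UMIs in the same order of libraries. Gsr still passed 1.5-fold in both pairs, with the levels of each pair closer than before. The macrophage markers of the class, at 10836, 15399, 9518 and 12482 CPM without that limit, were lower on high-fat diet under both labels. Their part in the Gsr ratios was not tested. In monocytes 1 of 7 passed (6.86% of all genes), Slc7a11 with −0.80 (−1.20 to −0.41) and −0.70 (−1.53 to 0.11). Without the granulocyte-marked cells these were −0.70 and −0.83. Single cells held large parts of these UMIs, as given with the gene, and the intervals do not cover that. The study, from a test over cells, lists Slc7a11 as upregulated in its own monocyte cluster of atherosclerotic against normocholesterolemic flox mice. For the same contrast it lists Gsr as downregulated in that cluster and Slc7a11 as upregulated in its proinflammatory macrophages. Here Gsr in monocytes stood at 412 CPM in Lox_CTR and 481 in Lox_HFD, or 489 in Lox_HFD without the granulocyte-marked cell. The study's clusters were not rebuilt here.

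No other member passed in both diet pairs. That was 0 of 10 in fibroblasts (5.69% of all genes), 0 of 10 in smooth muscle cells (5.03%), 0 of 3 in endothelial cells (14.8%), 0 of 8 in Lyve1+ macrophages (4.82%) and 0 of 8 in lymphocytes (3.69%). Txnrd1 in Lyve1+ macrophages came close, with −0.57 (−0.99 to −0.18) and −0.68 (−1.21 to −0.17). Hmox1 was lower on high-fat diet under the Nrf2Cdh5Lox label in Lyve1+ macrophages, −1.04 (−1.25 to −0.84), in other macrophages, −1.20 (−1.61 to −0.81), and in fibroblasts, −1.20 (−1.40 to −1.01). Under the Nrf2Cdh5tKO label the same ratios were −0.00 (−0.14 to 0.13), −0.24 (−0.49 to 0.01) and −0.41 (−0.58 to −0.24). The Hmox1 ratios under the first label and those of the label on standard diet share Lox_CTR.

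A wider list of 40 genes of the pathway (the regulators Nfe2l2, Nfe2l1, Bach2, the small Maf genes, Cul3 and Sqstm1, and further enzymes of glutathione, thioredoxin, NADPH, heme and superoxide chemistry) was read in the same way. In the edgeR test against the rest, 39 could be tested, and 20 were higher and 8 lower in fibroblasts, where 62.3% of all genes were called. The counts were 13 and 11 in smooth muscle cells (65.8% of all genes), 5 and 16 in endothelial cells (31.9%), 13 and 15 in Lyve1+ macrophages (48.8%) and 20 and 9 in other macrophages (42.2%). They were 16 and 8 in monocytes (42.2%) and 5 and 26 in lymphocytes (67.1%). Between Lyve1+ and other macrophages 4 of the 39 were higher and 10 lower, where 20.9% of all genes were called, with a median of −0.12 against 0.06 over all genes. The 4 higher ones included Blvrb (log2 1.17, SE 0.21), a biliverdin reductase, and the conjugate exporter Abcc1 (0.76, SE 0.20). The others were the glutathione transferases Mgst1 (1.07, SE 0.33) and Gstm1 (0.88, SE 0.25). The 4 lowest were Tkt (−1.20, SE 0.15) of the pentose phosphate pathway, Glrx (−1.10, SE 0.25), Prdx6 (−1.09, SE 0.22) and Txn1 (−1.01, SE 0.22). The calls of Mgst1 (0.17) and Glrx (−0.77) were lost without Lox_CTR, and that of Gstm1 (0.78) without Lox_HFD. The targeted gene Nfe2l2 was lower in Lyve1+ than in other macrophages (−0.54, SE 0.19, adjusted p = 0.048).

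Between the labels few genes of this list passed 1.5-fold in both pairs. In Lyve1+ macrophages 3 of 38 were lower (Mafk, Mgst1 and Txnrd3; 1.33% of all genes) and 1 was higher (Gss; 3.1%), and Gss and Txnrd3 rested on at most 25 UMIs per library. Mgst1 stood at 51.2, 15.9, 21.5 and 12.2 CPM, with −1.69 (−2.31 to −1.12) and −0.81 (−2.14 to 0.63). Mafk, a partner of Nrf2 and Bach1, stood at 91.1, 51.6, 64.5 and 38.3, with −0.82 (−1.17 to −0.49) and −0.75 (−1.49 to 0.02). Gclm, the modifier subunit that pairs with Gclc, stood at 37.3, 31.8, 37.6 and 30.1, and its ratios of −0.23 (−0.70 to 0.22) and −0.32 (−1.24 to 0.68) spanned 0. Nqo1, a widely used Nrf2 target, was counted with at most 5 UMIs in any macrophage library, so no ratio can be read. By quantitative PCR, the study found Gclm and Nqo1 lower in bone marrow-derived macrophages and Kupffer cells of Nrf2Cdh5tKO mice. Those cells were not read here. In other macrophages 2 of 36 were lower (2.03% of all genes), Maff, with −0.70 (−1.21 to −0.23) and −0.65 (−1.23 to −0.05), and Prdx5, with −0.60 (−0.84 to −0.37) and −0.59 (−0.85 to −0.34). In fibroblasts and in smooth muscle cells 0 of 40 passed (2.47% and 2.95% of all genes). In endothelial cells Nfe2l2 was higher, 1.20 (0.72 to 1.69) and 1.07 (0.38 to 1.78), and Gstm1 and Mgst1 were lower among 26 genes (4.93% of all genes in either direction). In lymphocytes Nfe2l2, at 59.5, 142, 78.4 and 134 CPM, was the only one of 37 to pass (1.98% of all genes), with 1.26 (1.04 to 1.48) and 0.78 (0.38 to 1.17). In monocytes Maff, Glrx and Slc3a2, the partner chain of Slc7a11, were lower among 31 (5.42% of all genes).

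For each member the genes with the most similar level over the 28 sums of cell type and library were taken by Pearson r of log2(CPM + 1) among 8813 genes, as a description, since the sums share libraries and cell types. The closest to Hmox1 were Cebpa (r = 0.95), Ccl2 and Sdcbp, and to Bach1 Syk (r = 0.95), Etf1 and H2-Aa. Slc7a11 was closest to Map4k1 (r = 0.95), Napsa and Cytip, and Gsr to Taldo1 (r = 0.89), Trem3 and Gm9733. Me1 was closest to Igfbp7 (r = 0.97), Lhfp and Jam3. Txnrd1 had weaker matches in Clec4e (r = 0.80), Clec4d and Plaur, as had Gclc in Mettl1 (r = 0.83), Phf13 and Alkbh7, and Srxn1 in Dirc2 (r = 0.85), Anxa4 and Tnfsf12. The weakest were those of Prdx1, Ufm1 (r = 0.80), Myl12a and S100a13, and of Keap1, Atxn2 (r = 0.77), Tob1 and Usp42. No member was among the 3 closest genes of another.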

How the data were processed

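The authors aligned the 3′ reads to mm10 and counted UMIs per gene and barcode with Cell Ranger 6.1.2, and they deposited these count matrices per cell, 1 per library, with the mice of a group pooled before sequencing. The deposited counts were used as they are. As in the study, barcodes were dropped under 200 or over 6000 genes or above 15% mitochondrial UMIs. From 2000 UMIs up a cell was placed in a type when its summed marker level and marker count passed exactly 1 of the gates, so 687 cells that passed several gates were left out. No doublet caller was applied in the main results. Scrublet called 190, 64, 10 and 42 cells of Lox_CTR, KO_CTR, Lox_HFD and KO_HFD, and their removal was an alternative. The types carry the names of these marker gates, not the study's clusters, which are not given per cell in the files used here.

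UMIs were summed per type and library. Cell types were compared with edgeR 4.0.16 (quasi-likelihood F test, TMM, filterByExpr, library as an additive block) in R 4.3.3, with Benjamini-Hochberg adjustment over all genes, and the fit was tested on simulated counts. Levels have exact Poisson and ratios exact binomial 95% intervals. A UMI is counted once per molecule, so these cover counting error only, and a count of 0 was given a limit of 3 UMIs. Other steps used Python 3.11.15, numpy 2.4.6, pandas 2.3.3, scipy 1.17.1 and scanpy 1.11.5. Library numbers are names only and pair no samples. The genes named are the 10 members, Nfe2l2, the 4 highest and 4 lowest called genes of the pathway list between macrophage classes, and the 3 most similar genes per member. Pathway genes past 1.5-fold between labels, Gclm and Nqo1 were named after their values were seen. The members, lists and tests were chosen with earlier results of these data known. Alternatives were DESeq2 1.42.0, other normalization and filters, no block, each library left out, other gates and denominators.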

Additional observations from a re-analysis of the deposited data

Results flagged for a closer look

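Some values lay outside the 7 types or turned between the pairs. Neutrophils, kept out of the comparisons as 75, 12, 11 and 4 cells in Lox_CTR, KO_CTR, Lox_HFD and KO_HFD, held more Slc7a11 and Gsr than any of the 7 types in every library. Slc7a11 stood there at 2705, 895, 606 and 2357 CPM, and Gsr at 1079, 829, 738 and 1178. Monocytes, the highest of the 7 types, stood at most at 310 and 535. The 4 cells of KO_HFD carried 42 Slc7a11 UMIs.

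In 6 cases the 2 label ratios had opposite signs with both intervals away from 0. Prdx1 had −0.42 on standard diet and 0.21 on high-fat diet in fibroblasts, and −0.084 and 0.18 in smooth muscle cells. Hmox1 in smooth muscle cells had −1.03 and 2.17, the second from 2 UMIs in Lox_HFD. In lymphocytes Slc7a11 had 0.68 and −1.90, Keap1 0.61 and −0.92, and Bach1 0.22 and −1.03. The diet ratios turned in 4 of these cases. They were −0.46 under the Nrf2Cdh5Lox label and 0.17 under the Nrf2Cdh5tKO label for Prdx1 in fibroblasts, and in lymphocytes 0.94 and −1.64 for Slc7a11, 0.68 and −0.84 for Keap1 and 0.25 and −1.0 for Bach1. With 1 library per condition these differences were not tested, and the label and diet ratios share libraries.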

How the results depend on the processing

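No call against the rest, no call between the macrophage classes and no ratio past 1.5-fold in both pairs turned its direction under an alternative. Ratios under that limit did turn as a mean over cells, as for Txnrd1 in endothelial cells on standard diet (66 CPM in Lox_CTR and 60.8 in KO_CTR) and Gsr in Lyve1+ macrophages on high-fat diet (7.08 in Lox_HFD and 12 in KO_HFD). The members called lower against the rest, 20 in all, numbered 11 without Lox_CTR and 11 to 18 over the 4 libraries left out, those called higher 18 to 23 (24 in all), and the genes called between Lyve1+ and other macrophages, 2350 with every library, 1475 (without Lox_CTR) to 1969. With no replicate block these were 15, 22 and 1745, with 3 members and 10 pathway genes called between the macrophage classes. Without the block Mgst1 and Gstm1 were not called and no member call between these classes changed, and library numbers do not pair samples.

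Chosen after seeing the data, a macrophage marker level of at least 100 left 1253 genes called between the classes and 3 of the 5 member ratios past 1.5-fold between labels in macrophages, with −2.61 for Txnrd1 in other macrophages on standard diet and −5.03 and −0.32 for Slc7a11. In the other 5 types the 1 such label ratio became 2 from 4000 UMIs per cell (Hmox1 in lymphocytes added), 0 with 1 more marker per gate and 0 as a mean over cells (−0.09 for Slc7a11 in monocytes on standard diet), while in macrophages the mean over cells gave 6, with Gsr lower in other macrophages added. The diet ratios past 1.5-fold in macrophages numbered 1, and 2 at a mitochondrial limit of 10%, from 4000 UMIs and without mitochondrial and ribosomal genes (Txnrd1 in Lyve1+ macrophages added each time) and as a mean over cells (Gclc in other macrophages). In the other 5 types they numbered 1, and 2 from 4000 UMIs (Hmox1 in lymphocytes). The cause was not tested. Over the alternatives, single comparisons of a member with the rest, called or not, kept their side of the threshold 970 times. A call was lost 70 times and gained 10 times, and only the 44 calls of the main fit could be lost. Endothelial cells, monocytes and Lox_HFD limit the depth.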
